A study of Mus musculus with 18 samples.

Results

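The genes described are the core of the LIF receptor and Stat3 pathway in mouse embryonic stem cells (mESCs), 9 of the 24369 genes in the deposited TPM table. They were taken by name, with earlier results of these data known. Upstream are *Lifr* and *Il6st*, the receptor chains, *Jak1*, a kinase that docks on them, and *Stat3*, the transcription factor. *Socs3*, *Pim1*, *Pim3*, *Junb* and *Bcl3* are known target genes of Stat3. RNA-seq was read from 18 libraries. Of these, 12 follow differentiation of Rex1GFPd2-Cas9 mESCs, with 3 libraries each before differentiation (day 0) and on days 1, 2 and 3. The other 6 are GFP+ mESCs of 3 genotypes with 2 libraries each: wild-type, *Nprl2* KO (Rex1GFPd2-Cas9 Nprl2-/-) and *Tsc2* KO (Rex1GFPd2-Cas9 Tsc2-/-).

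All groups share 1 modified E14 line, which carries a destabilised GFP in an allele of *Rex1* and Cas9 driven by the EF1α promoter at *Rosa26*, and in which GFP+ cells are those with reporter expression. The KO lines are clones in which a critical exon was removed from both alleles, so a clone and its genotype cannot be told apart. GFP+ cells were sorted from cultures with serum and LIF on mitomycin-treated mouse embryonic fibroblasts. Differentiation was in a medium without LIF and without the 2 inhibitors that hold cells in the naive state. The sources used here give neither the age of the cultures nor the medium of the day 0 cells. Whether libraries of a group came from separate cultures is not stated either, so p-values measure the spread between libraries, which may be technical.

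LIF binds its receptor Lifr, which pairs with the shared signalling chain gp130, the product of *Il6st*. Jak kinases bound to the chains then phosphorylate Stat3, which dimerises, enters the nucleus and switches on target genes. Among these, Socs3 feeds back to block the receptor complex. In mESC culture this pathway is known for holding cells in self-renewal.

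Levels are given in TPM, a unit that scales each library to the same total and corrects for transcript length. Differences are log2 fold changes of estimated counts between groups, fitted with edgeR, with their standard error (SE) and a p-value adjusted over all genes tested. A gene is called where this adjusted p is under 0.05, and "rose" and "fell" are written of called genes only. The time course tested 14382 genes and the GFP+ comparisons 13725, and all 9 genes passed the filter on low counts in both. Library totals over all transcripts, also those without a gene, lay between 8610357 and 15305054 estimated counts. In bulk RNA, fewer cells of a type and less RNA per cell cannot be told apart, and this holds for every value below. The 9 markers fixed for mESCs summed to between 8541 and 8828 TPM at day 0, between 1560 and 1926 TPM at day 3, between 6714 and 7255 TPM in GFP+ wild-type cells, between 6108 and 6875 TPM in *Nprl2* KO and between 8496 and 8750 TPM in *Tsc2* KO.

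The stretches before the transcription start of 3 genes are shown because a Stat-type DNA element is the feature by which Stat3 reaches its targets. *Socs3* and *Bcl3* had the steepest falls of the 9 on day 1, and *Junb* was the only one called higher at day 3 than at day 0. The letters come from RefSeq promoter windows of GRCm38.p6, the build the labels call mm10, on the strand of the gene, and the last base is the one nearest the start. Capitals mark the palindrome TTCNNNGAA, searched on both strands, which are the same for this motif. The regions are chr11:117969452-117969616 (minus strand), chr7:19822825-19823005 (minus strand) and chr8:84978749-84978998 (minus strand), and bases inside GENCODE exons of the gene were left out, as were bases inside the RefSeq gene for *Bcl3*.
Socs3: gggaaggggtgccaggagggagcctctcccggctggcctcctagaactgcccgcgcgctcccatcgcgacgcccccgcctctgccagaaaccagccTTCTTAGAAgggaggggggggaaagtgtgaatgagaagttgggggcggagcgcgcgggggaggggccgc
Bcl3: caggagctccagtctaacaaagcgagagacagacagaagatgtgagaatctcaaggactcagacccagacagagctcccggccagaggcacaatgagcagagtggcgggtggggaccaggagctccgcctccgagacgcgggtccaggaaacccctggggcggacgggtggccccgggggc
Junb: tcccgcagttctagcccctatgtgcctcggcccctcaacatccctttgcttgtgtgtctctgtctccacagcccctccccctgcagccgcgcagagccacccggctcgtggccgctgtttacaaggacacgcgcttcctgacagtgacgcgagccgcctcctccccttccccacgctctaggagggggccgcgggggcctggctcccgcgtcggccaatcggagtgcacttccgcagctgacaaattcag
Among the windows of the 9 genes, each 300 bases long, only that of *Socs3* held TTCNNNGAA, as TTCTTAGAA at 154 bases before the start that the window is built on. The same letters occur in 8.30% of the 32851 promoter windows in the RefSeq table, and for 9.55% of the 27025 genes that have a window. The stricter TTCCNGGAA was in no window of the 9 genes and in 1.15% of all windows. The *Socs3* window lies inside the annotated gene (chr11:117966079-117970336), around 1 of several starts. A match is a description of letters, and a missing match says only that these letters are not in that window.

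All 9 genes fell from day 0 to day 1, where 60.9% of all genes tested were called and 30.8% were called lower. At day 2 against day 0, 8 of the 9 were lower, where 66.6% of all genes were called and 32.4% called lower. At day 3 against day 0, 7 were lower and 1, *Junb*, was higher, where 70.9% of all genes were called, 35.9% lower and 35% higher. With that many calls in the background the count of calls says little about these genes, and their sizes and order in time are described below. The median log2 fold change of the 9 was −1.61 at day 1, −2.14 at day 2 and −1.72 at day 3, against medians over all genes tested of 0.00, 0.01 and −0.01. The 3 comparisons share the day 0 libraries.

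**Figure D1:**
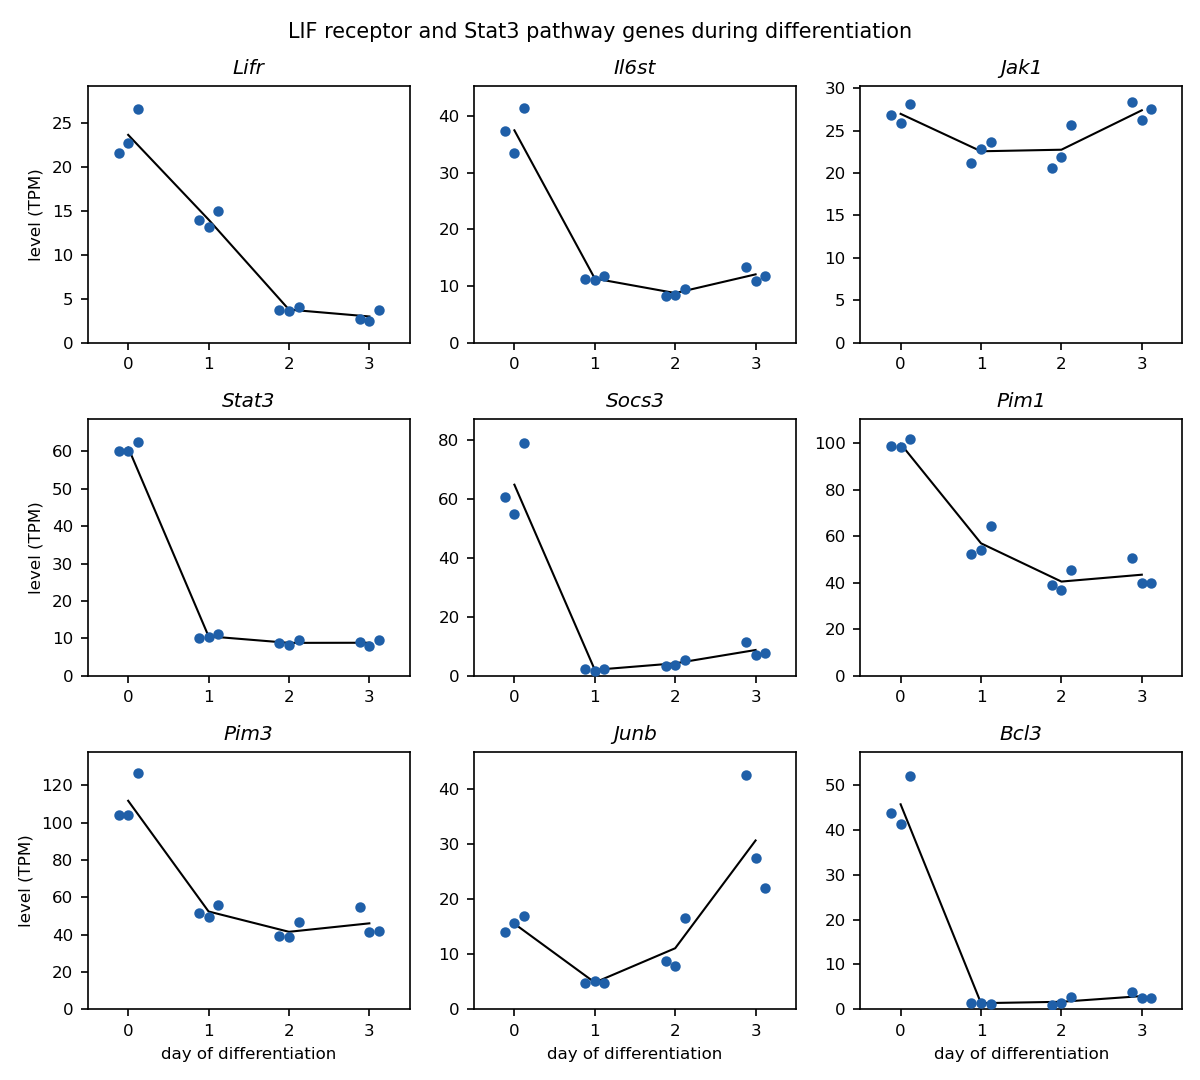
Level in TPM (vertical axes, each from 0) of the 9 genes by day of differentiation, with a point for each of 3 libraries a day and a line through the means. *Stat3*, *Socs3* and *Bcl3* have their largest drop by day 1, and *Lifr* falls at each step. *Jak1* stays between 20.7 and 28.4 TPM and *Junb* ends above its start.

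*Lifr*, the LIF-binding chain, stood at 21.7, 22.8 and 26.7 TPM in the day 0 libraries, at 13.9, 13.1 and 15.0 TPM on day 1, at 3.68, 3.57 and 4.05 TPM on day 2, and at 2.75, 2.46 and 3.74 TPM on day 3. Days 0, 1 and 2 did not overlap, and day 3 overlapped day 2. Its level fell at each step. The log2 fold change was −0.90 (SE 0.09, edgeR adjusted p = 1.49e-07) from day 0 to day 1 and −2.26 (SE 0.11, edgeR adjusted p = 1.05e-11) from day 1 to day 2, the second step being the larger. The last step, −0.52 (SE 0.14, edgeR adjusted p = 0.00847), lost its call without day 2 library 1 (adjusted p = 0.0608) and without day 3 library 2 (adjusted p = 0.0520), and in a limma fit of log2(TPM + 1).

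*Il6st*, which encodes gp130, stood at 37.4, 33.5 and 41.5 TPM at day 0, at 11.3, 11.0 and 11.7 TPM on day 1, at 8.27, 8.47 and 9.49 TPM on day 2, and at 13.4, 11.0 and 11.8 TPM on day 3. Every later library was below every day 0 library, and days 1 and 3 overlapped. The gene fell by 1.66 on the log2 scale by day 1 (SE 0.09, edgeR adjusted p = 5.55e-12), fell further from day 1 to day 2, by 0.48 (SE 0.09, edgeR adjusted p = 0.000191), and rose by 0.42 from day 2 to day 3 (SE 0.09, edgeR adjusted p = 0.00238). At day 3 its level did not differ from day 1 beyond the spread (edgeR adjusted p = 0.545). The larger step came on day 1 for *Il6st* and on day 2 for *Lifr*, and between days 2 and 3 *Il6st* rose while *Lifr* fell.

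*Jak1* moved least of the 9. It stood at 26.9, 25.9 and 28.2 TPM at day 0, at 21.2, 22.9 and 23.6 TPM on day 1, at 20.7, 21.9 and 25.7 TPM on day 2, and at 28.4, 26.2 and 27.5 TPM on day 3. Days 1 and 2 lay below day 0 in every library, and days 0 and 3 overlapped. The fall to day 1 was −0.19 (SE 0.07, edgeR adjusted p = 0.0288) and rested on single libraries: the call was lost without day 0 library 1 or 3 or without day 1 library 1 or 2, with adjusted p between 0.0513 and 0.134, and in DESeq2 (adjusted p = 0.0634). The difference between day 2 and day 0 (−0.29, SE 0.07, edgeR adjusted p = 0.00147) kept its call without any 1 library. Day 3 against day 0 gave −0.06 (SE 0.07, edgeR adjusted p = 0.435).

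*Stat3* stood at 60.2, 60.2 and 62.6 TPM at day 0, at 10.04, 10.4 and 11.2 TPM on day 1, at 8.76, 8.17 and 9.51 TPM on day 2, and at 9.14, 7.90 and 9.50 TPM on day 3. The lowest day 0 library was far above the highest of any later day, and days 2 and 3 overlapped. The level was 5.5-fold lower on day 1 by fitted counts (log2 fold change −2.46, SE 0.07, edgeR adjusted p = 1.06e-15). It fell slightly further by day 2 (−0.38, SE 0.08, edgeR adjusted p = 0.000437), after which days 2 and 3 did not differ beyond the spread (−0.04, SE 0.08, edgeR adjusted p = 0.758). Among the kinase, factor and receptor chains of the 9 genes, *Stat3* dropped most on the first day. Stat3 is itself a target of Stat3 in many cells, and the part of this in its fall was not tested.

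*Socs3*, the feedback inhibitor, stood at 60.8, 54.8 and 79.2 TPM at day 0, at 2.18, 1.78 and 2.17 TPM on day 1, at 3.51, 3.74 and 5.52 TPM on day 2, and at 11.5, 7.24 and 7.65 TPM on day 3. None of the 4 days overlapped with another, and the order of levels was day 0, day 3, day 2, day 1. The gene was 30.2-fold lower on day 1 than at day 0 by fitted counts (log2 fold change −4.92, SE 0.23, edgeR adjusted p = 1.50e-09), and then rose at each step. From day 1 to day 2 the rise was 0.94 (SE 0.30, edgeR adjusted p = 0.0172), a call lost without day 1 library 2 (adjusted p = 0.0595) or day 2 library 3 (adjusted p = 0.0957). From day 2 to day 3 it was 1.01 (SE 0.24, edgeR adjusted p = 0.00738). At day 3 *Socs3* was still 7.79-fold below day 0. Any part of the promoter letters of *Socs3* above in this course was not tested.

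*Bcl3*, which encodes a nuclear IκB family protein, had the steepest first step of the 9. It stood at 43.9, 41.4 and 52.1 TPM at day 0, at 1.42, 1.45 and 1.09 TPM on day 1, at 0.864, 1.32 and 2.70 TPM on day 2, and at 3.79, 2.50 and 2.44 TPM on day 3. Days 1 and 2 overlapped, days 2 and 3 overlapped, and day 3 lay above day 1 in every library. The gene was 32.6-fold lower on day 1 than at day 0 (log2 fold change −5.03, SE 0.23, edgeR adjusted p = 3.14e-12). It was higher on day 3 than on day 1 (0.98, SE 0.32, edgeR adjusted p = 0.01), a call lost without day 3 library 1 (adjusted p = 0.0663). Between 10 and 50 estimated counts a library stood behind the values of days 1 to 3, so their precision is low.

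*Pim1* and *Pim3*, which encode serine/threonine kinases, fell less and more slowly. *Pim1* stood at 99.0, 98.6 and 102 TPM at day 0, at 52.4, 54.1 and 64.6 TPM on day 1, at 39.1, 37.0 and 45.6 TPM on day 2, and at 50.8, 39.8 and 40.0 TPM on day 3. *Pim3* stood at 104, 104 and 127 TPM at day 0, at 51.8, 49.2 and 56.1 TPM on day 1, at 39.3, 38.5 and 46.7 TPM on day 2, and at 54.9, 41.2 and 42.0 TPM on day 3. In both, day 0 lay above all later libraries, day 1 lay above day 2, and day 3 overlapped day 2. The first step was −0.74 for *Pim1* (SE 0.09, edgeR adjusted p = 2.14e-06) and −1.02 for *Pim3* (SE 0.11, edgeR adjusted p = 1.38e-06), and the second was −0.60 for *Pim1* (SE 0.10, edgeR adjusted p = 4.31e-05) and −0.45 for *Pim3* (SE 0.12, edgeR adjusted p = 0.00352). Days 2 and 3 did not differ beyond the spread in either gene.

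*Junb*, a subunit of the AP-1 transcription factor, dipped and then climbed past its start. It stood at 14.0, 15.6 and 17.0 TPM at day 0, at 4.70, 5.03 and 4.77 TPM on day 1, at 8.70, 7.92 and 16.6 TPM on day 2, and at 42.6, 27.4 and 22.1 TPM on day 3. Every day 3 library was above every library of the other days, every day 1 library was below them, and days 0 and 2 overlapped through day 2 library 3. The fall to day 1 was −1.61 (SE 0.33, edgeR adjusted p = 0.00164). The rise from day 1 to day 2 was 1.07 (SE 0.35, edgeR adjusted p = 0.0208) and lost its call without day 2 library 3 (0.67, adjusted p = 0.0795), without day 1 library 1 (adjusted p = 0.0575) and without day 1 library 3 (adjusted p = 0.0581). From day 2 to day 3 the gene rose by 1.44 (SE 0.29, edgeR adjusted p = 0.00384), and day 3 stood 1.87-fold above day 0 (0.90, SE 0.28, edgeR adjusted p = 0.0127). The difference of day 2 from day 0, −0.54 (SE 0.30, edgeR adjusted p = 0.139), was called without day 2 library 3 (−0.95, adjusted p = 0.00815) and without day 3 library 1 (−0.55, adjusted p = 0.0330).

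Immediate early genes, which respond within minutes to serum and growth factors, are given beside *Junb*. A list of 14 others (*Fos*, *Egr1*, *Ier2* and the like, without *Junb*) summed to between 273 and 290 TPM at day 0, between 230 and 245 TPM on day 1, between 304 and 413 TPM on day 2, and between 369 and 682 TPM on day 3. The highest sums of days 2 and 3 were in day 2 library 3 and day 3 library 1, which also had the highest *Junb*. Of the 12 list members tested, 1 rose and 5 fell at day 1 against day 0, where 30.1% of all genes were called higher and 30.8% lower. At day 2 against day 0, 7 rose and 2 fell (34.2% and 32.4% of all genes), while *Junb* stood at −0.54 with no call. At day 3 against day 0, 9 rose and 1 fell (35% and 35.9% of all genes), and from day 2 to day 3, 5 rose (15.9% of all genes) and all 12 had log2 fold changes above 0. The part of these genes in the values of *Junb* was not tested.

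Between days 2 and 3, where 31.5% of all genes tested were called (15.9% higher and 15.6% lower), 4 of the 9 rose (*Il6st*, *Jak1*, *Socs3* and *Junb*) and 1, *Lifr*, fell. The call of *Jak1* (0.23, SE 0.07, edgeR adjusted p = 0.0213) was lost without day 2 library 1 (adjusted p = 0.120), without day 2 library 2 (adjusted p = 0.0811) and without day 3 library 1 (adjusted p = 0.0751), and 3 of the 9 were called without day 2 library 1. *Bcl3* (0.81, SE 0.31, edgeR adjusted p = 0.0543) missed the threshold and passed it without day 2 library 3 (1.37, adjusted p = 0.00215), in DESeq2 (adjusted p = 0.0221) and in limma (adjusted p = 0.0386). From day 1 to day 2, where 62.1% of all genes were called (32.5% higher and 29.6% lower), 2 of the 9 rose and 5 fell, and from day 1 to day 3, where 71.2% were called (36.3% higher and 35% lower), 3 rose and 4 fell.

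In all 9 the highest day 0 library was library 3 and the highest day 2 library was library 3, and in 7 of 9 the highest day 3 library was library 1. On day 1 the highest was library 1 for 1 gene, library 2 for 2 and library 3 for 6. Over all genes above 0 in each of the 3 libraries, day 0 library 3 was the highest for 32.2%, day 1 library 3 for 42.8%, day 2 library 3 for 45.1% and day 3 library 1 for 31.6%. The cause was not tested.

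Across the 12 libraries of the time course the log2 CPM values of most pairs of these genes ran together, with Pearson's r of 0.98 for *Il6st* with *Stat3* and 0.98 for *Pim1* with *Pim3*, while *Junb* ranged from −0.43 with *Lifr* to 0.61 with *Jak1*. These correlations are a description: the libraries fall into 4 days and share the step from day 0 to day 1. The genes most like *Socs3* by this measure, among 14381 others, were *Slc12a7*, *Ctdsp2*, *Kit* and *Tsc22d1*, each with r of 0.994, and *Ctsb* with r of 0.993. The level of *Kit*, for example, averaged 79.1 TPM at day 0 and 3.13, 7.15 and 11.2 TPM on days 1, 2 and 3. Those most like *Lifr* were *Mlh3* (r = 0.999), *Mybl2* (r = 0.995), *Acsbg3* (r = 0.992), *Lrriq4* (r = 0.991) and *Pcolce* (r = 0.991), and *Mybl2* averaged 585, 356, 114 and 88.6 TPM on the 4 days.

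**Figure D2:**
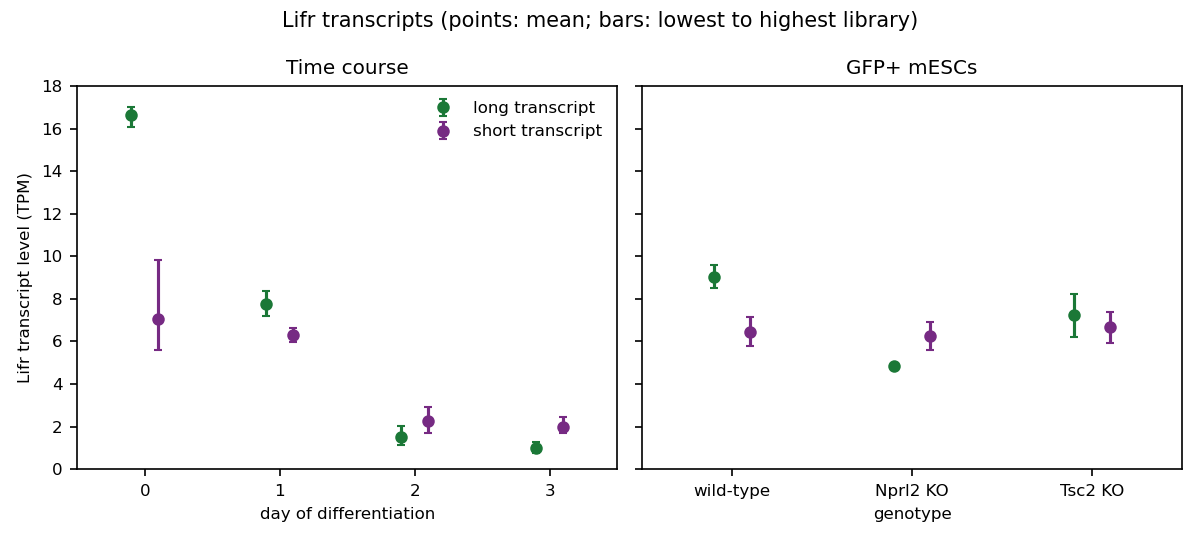
Level in TPM of the long (NM_013584.2) and the short (NM_001113386.1) *Lifr* transcript by day and by genotype, with points at the mean over libraries and bars from the lowest to the highest library. The long transcript is the more abundant at day 0 and the less abundant at days 2 and 3 by the mean, and the short one changes less.

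*Lifr* was counted over 2 RefSeq transcripts, of 9663 and 2844 bases. At day 0 the long one held 70.7% of the gene's TPM on average (range 63.2% to 74.7% over 3 libraries), on day 1 55.1% (54.7% to 55.8%), on day 2 40.6% (27.8% to 54.5%) and on day 3 33.2% (30.6% to 34.8%). The day 0 and day 3 ranges did not overlap. The mean level of the long transcript went from 16.7 to 0.996 TPM over the 3 days and that of the short one from 7.05 to 1.99 TPM. Since counts give more weight to a long transcript than TPM does, the fall of *Lifr* from day 0 to day 3 was 12.8-fold in fitted counts and 7.94-fold in mean TPM. No test was run on transcript shares, and kallisto's division of reads between overlapping transcripts adds an error that is not in these ranges. Of the other genes only *Stat3* had several transcripts in the files, 3 of nearly equal length, and NM_213659.2 held most of its TPM on average in every group (59.9% to 82.4%).

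The targeted genes were read first in the KO libraries as a check of the labels. *Nprl2* stood at 16.1 and 17.0 TPM in wild-type and at 8.09 and 8.65 TPM in *Nprl2* KO, and *Tsc2* at 45.0 and 44.9 TPM in wild-type and at 18.8 and 20.3 TPM in *Tsc2* KO. Nprl2, a subunit of the Gator1 complex, and Tsc2 both restrain mTORC1, a kinase complex that promotes growth. In *Nprl2* KO cells 1 of the 9 genes fell and none rose, where 6.43% of all genes were called (2.78% higher and 3.66% lower). In *Tsc2* KO cells 2 rose and 2 fell, where 29.1% of all genes were called (14.9% higher and 14.2% lower). Over the 9 genes the median difference on the log2 scale was −0.19 for *Nprl2* KO and −0.18 for *Tsc2* KO, against 0.00 over all genes for each. Both comparisons share the wild-type libraries.

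**Figure D3:**
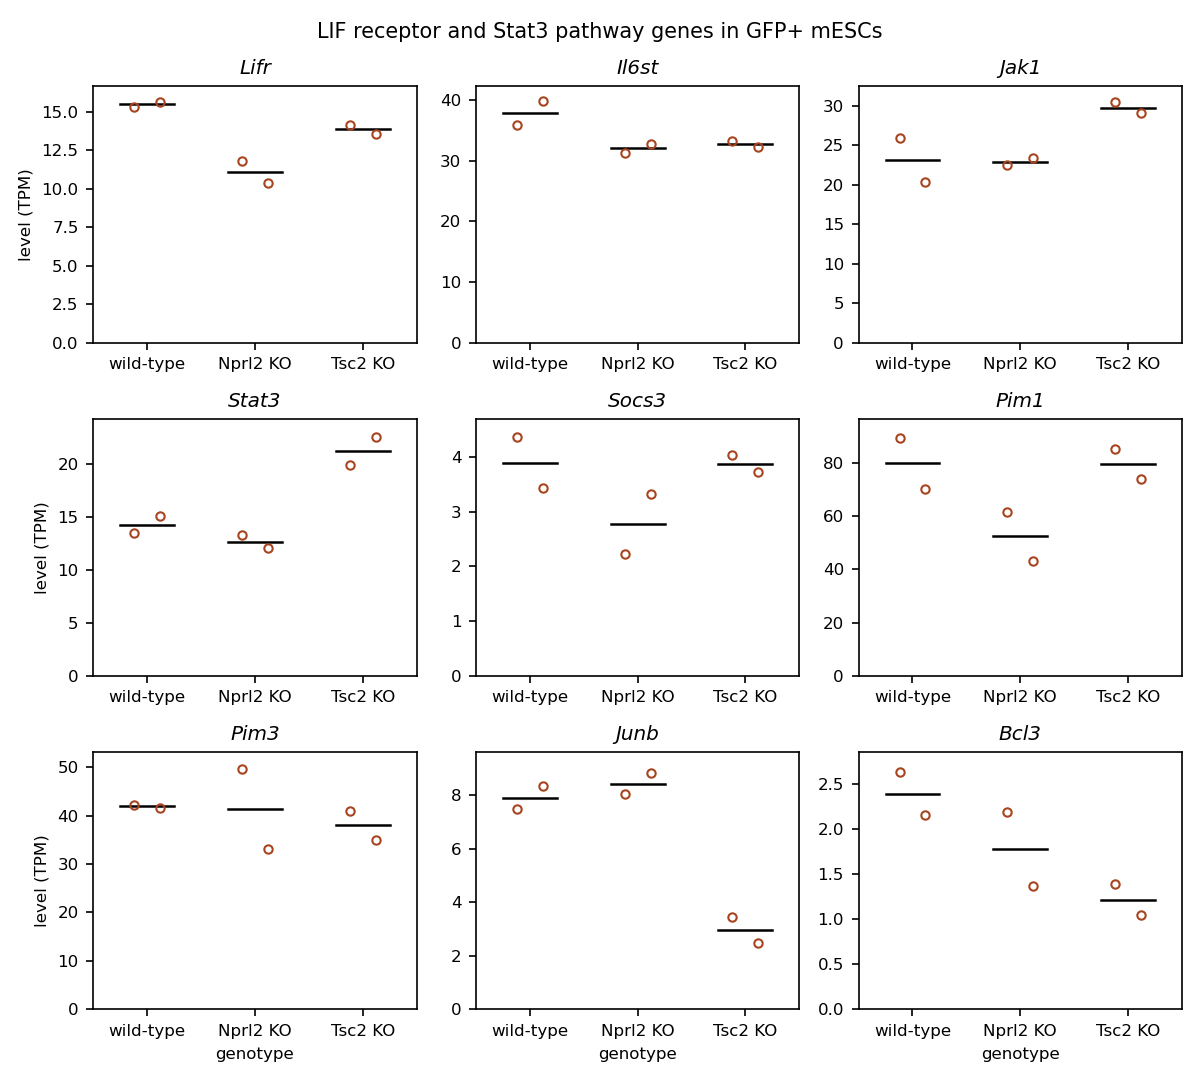
Level in TPM (vertical axes, each from 0) of the 9 genes in GFP+ mESCs, with an open point for each of 2 libraries a genotype and a bar at the mean. *Stat3* stands highest and *Junb* lowest in the 2 *Tsc2* KO libraries, and *Lifr* lowest in the 2 *Nprl2* KO libraries.

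*Lifr* was the gene that fell in *Nprl2* KO. It stood at 15.3 and 15.6 TPM in wild-type, 11.8 and 10.4 TPM in *Nprl2* KO and 14.2 and 13.6 TPM in *Tsc2* KO, with no overlap between genotypes. The log2 fold change in *Nprl2* KO was −0.67 (SE 0.11, edgeR adjusted p = 0.00426). The call was lost without *Nprl2* KO library 2 (−0.61, adjusted p = 0.0512), when none of the 9 was called, and in limma on log2(TPM + 1) (−0.45, adjusted p = 0.0576). In *Tsc2* KO it was −0.29 (SE 0.11, edgeR adjusted p = 0.0658), a value that passed the threshold without *Tsc2* KO library 1 (adjusted p = 0.0290) and with no filter on low counts (adjusted p = 0.0346). The long transcript held 54.3% to 62.4% of *Lifr* TPM in the wild-type libraries and 41.6% to 45.9% in the *Nprl2* KO libraries. In *Tsc2* KO its share was 45.7% to 58.0%, overlapping wild-type.

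*Stat3* rose in *Tsc2* KO. It stood at 13.5 and 15.1 TPM in wild-type, 13.3 and 12.1 TPM in *Nprl2* KO and 19.9 and 22.6 TPM in *Tsc2* KO, where both libraries were above the other 4. The log2 fold change was 0.54 in *Tsc2* KO (SE 0.11, edgeR adjusted p = 0.00323) and the call was kept without any 1 library and in all 5 other analyses. In *Nprl2* KO it was −0.13 (SE 0.11, edgeR adjusted p = 0.578).

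*Junb* had the largest change of the 9 between genotypes. It stood at 7.49 and 8.33 TPM in wild-type, 8.03 and 8.82 TPM in *Nprl2* KO and 3.46 and 2.47 TPM in *Tsc2* KO, where both libraries were below the other 4. It was 2.73-fold lower in *Tsc2* KO (log2 fold change −1.45, SE 0.24, edgeR adjusted p = 0.000826), and the call was kept without any 1 library and in all 5 other analyses. In *Nprl2* KO the value was 0.13 (SE 0.22, edgeR adjusted p = 0.790). The list of 14 immediate early genes summed to between 211 and 226 TPM in wild-type and between 235 and 244 TPM in *Tsc2* KO, and of 11 members tested there 3 rose and 1 fell, where 14.9% of all genes were called higher and 14.2% lower. The 9 mESC markers summed to between 6714 and 7255 TPM in wild-type and between 8496 and 8750 TPM in *Tsc2* KO, with 4 called higher and 1 lower, and their part in the values of *Stat3* and *Junb* was not tested.

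The other calls in *Tsc2* KO were weaker. *Jak1* stood at 25.9 and 20.4 TPM in wild-type, 22.5 and 23.4 TPM in *Nprl2* KO and 30.5 and 29.1 TPM in *Tsc2* KO. Its rise in *Tsc2* KO, 0.33 (SE 0.10, edgeR adjusted p = 0.0311), was lost in DESeq2 (adjusted p = 0.0671), in limma (adjusted p = 0.0577), and without wild-type library 2 (0.18, adjusted p = 0.235), either *Tsc2* KO library (adjusted p = 0.154 without library 1 and 0.0749 without library 2) or *Nprl2* KO library 1 (adjusted p = 0.0514). *Il6st* stood at 36.0 and 39.9 TPM in wild-type, 31.3 and 32.8 TPM in *Nprl2* KO and 33.3 and 32.3 TPM in *Tsc2* KO. Its fall in *Tsc2* KO, −0.24 (SE 0.08, edgeR adjusted p = 0.0401), was lost in DESeq2 (adjusted p = 0.0950), in limma (adjusted p = 0.124), and without wild-type library 2 (−0.15, adjusted p = 0.281), *Tsc2* KO library 1 (adjusted p = 0.0845) or *Tsc2* KO library 2 (adjusted p = 0.233). Both *Tsc2* KO libraries were on one side of both wild-type libraries for each gene, though the differences were near the spread of the wild-type pair for *Jak1*. Only *Stat3* and *Junb* were called in *Tsc2* KO without wild-type library 2, and without *Tsc2* KO library 2.

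Of the remaining targets none was called in either KO. *Socs3* stood at 4.36 and 3.44 TPM in wild-type, 2.23 and 3.33 TPM in *Nprl2* KO and 4.03 and 3.72 TPM in *Tsc2* KO, and *Bcl3* at 2.64 and 2.15, 2.19 and 1.37, and 1.39 and 1.04 TPM. Both *Tsc2* KO libraries lay below wild-type for *Bcl3* (−1.02, SE 0.39, edgeR adjusted p = 0.0684), on 13 to 27 estimated counts a library in those 2 genotypes. *Pim1* stood at 89.4 and 70.2 TPM in wild-type, 61.6 and 43.1 TPM in *Nprl2* KO and 85.0 and 73.7 TPM in *Tsc2* KO. Its value in *Nprl2* KO, −0.59 (SE 0.19, edgeR adjusted p = 0.129), passed the threshold in DESeq2 (adjusted p = 0.0114), with no filter (adjusted p = 1.12e-06) and without *Nprl2* KO library 1 (−0.87, adjusted p = 0.0207). *Pim3* overlapped between wild-type and *Nprl2* KO, at 42.2 and 41.6 TPM in wild-type, 49.7 and 33 TPM in *Nprl2* KO and 41.0 and 34.9 TPM in *Tsc2* KO. For TPM, transcript lengths were shortened by 228 bases in *Nprl2* KO library 1, a correction for fragment length, and by 170 to 184 bases in the other GFP+ libraries. The part of this in the values of *Pim1* and *Pim3* was not tested.

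Set directly against each other, the KO lines differed in 4 of the 9 genes, where 34.2% of all genes were called (17.5% higher and 16.6% lower). *Stat3* (0.67, SE 0.11, edgeR adjusted p = 0.000579), *Lifr* (0.39, SE 0.11, edgeR adjusted p = 0.0174) and *Jak1* (0.30, SE 0.10, edgeR adjusted p = 0.0383) were higher and *Junb* (−1.58, SE 0.24, edgeR adjusted p = 0.000285) lower in *Tsc2* KO than in *Nprl2* KO. The calls of *Stat3* and *Junb* were kept without any 1 library. That of *Lifr* was lost without *Nprl2* KO library 2 (adjusted p = 0.117), without *Tsc2* KO library 1 (0.24, adjusted p = 0.187) and in limma (adjusted p = 0.0690), and that of *Jak1* without any 1 of the 4 libraries (adjusted p between 0.0771 and 0.186) and in DESeq2 (adjusted p = 0.0817). *Pim1* (0.54, SE 0.19, edgeR adjusted p = 0.0643) missed the threshold and passed it in DESeq2 (adjusted p = 0.00813), with no filter (adjusted p = 2.43e-06) and without *Nprl2* KO library 1 (0.81, adjusted p = 0.00591). *Pim3* (−0.19, SE 0.19, edgeR adjusted p = 0.495) was called without *Nprl2* KO library 2 (−0.46, adjusted p = 0.0231). Without *Tsc2* KO library 1, 2 of the 9 were called.

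**Figure D4:**
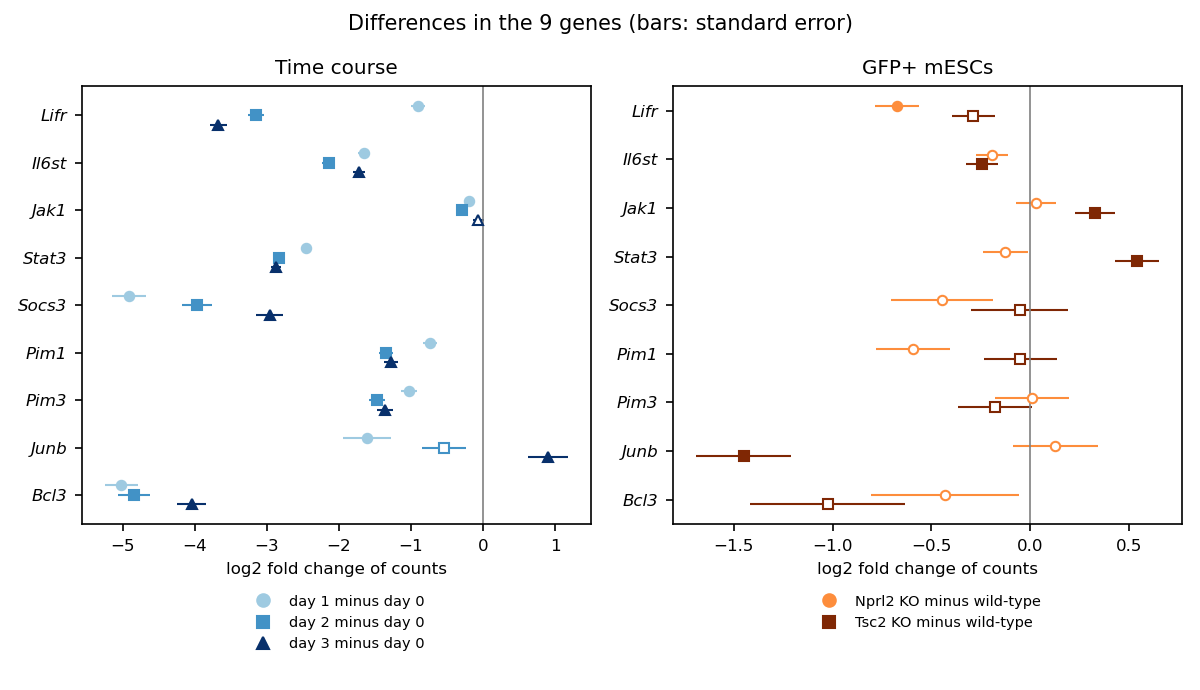
Log2 fold change of fitted counts (horizontal axes) of the 9 genes for days 1, 2 and 3 against day 0 and for each KO against wild-type, with bars of 1 SE. Filled symbols passed an adjusted p of 0.05 and open symbols did not. The time course runs to −5.03 (*Bcl3*, day 1), while no value in the KO lines is beyond −1.45 (*Junb*, *Tsc2* KO).

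The GFP+ wild-type libraries and the day 0 libraries both come from Rex1GFPd2-Cas9 mESCs before differentiation, and the 9 genes are given side by side in them. *Stat3* averaged 61.0 TPM at day 0 and 14.3 TPM in GFP+ wild-type cells, *Socs3* 64.9 and 3.90 TPM, and *Bcl3* 45.8 and 2.39 TPM. *Pim3* averaged 112 and 41.9 TPM, *Junb* 15.5 and 7.91 TPM, *Lifr* 23.7 and 15.5 TPM and *Pim1* 99.8 and 79.8 TPM. For these 7 genes every day 0 library was above both GFP+ wild-type libraries. The GFP+ wild-type libraries lay within the range of days 1 to 3 for *Socs3* and *Bcl3*, and above it for *Stat3*. *Il6st* averaged 37.4 and 37.9 TPM and its libraries overlapped, and *Jak1* averaged 27.0 and 23.2 TPM. No test was run across them, since the sets are not stated to share an experiment and only the GFP+ cells are described as sorted from cultures on feeder cells. The transcript lengths used for TPM were also corrected unlike each other. The correction was 179 bases in each day 0 library and 170 and 174 bases in the GFP+ wild-type libraries. Its part in these differences was not tested. Of 12 fibroblast markers, the summed level was 11.8 to 19.8 TPM at day 0, 131 to 185 TPM in wild-type and 138 to 144 TPM in *Nprl2* KO. It was 168 TPM in *Tsc2* KO library 1 and 47.3 TPM in *Tsc2* KO library 2. Of the 9 of these markers tested in GFP+ cells none was called in either KO. Calls covered 29.1% of all genes for *Tsc2* KO and 6.43% for *Nprl2* KO. The 9 markers had a median log2 fold change of −0.65 for *Tsc2* KO, whose libraries lay far apart, and −0.20 for *Nprl2* KO. With so few genes and this spread, the lack of calls does not show equal fibroblast content. The part of the fibroblast markers in the values of the 9 pathway genes was not tested. The 8 primitive endoderm markers summed to between 19.7 and 64.2 TPM over all 18 libraries.

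Of 50 other genes of the pathway and its family, listed beside the 9, 47 were tested in each set. From day 0 to day 1, 13 rose and 25 fell, with a median log2 fold change of −0.23, and from day 0 to day 3, 12 rose and 23 fell, again with a median of −0.23. In *Nprl2* KO 1 rose and 3 fell, and in *Tsc2* KO 9 rose and 5 fell. The shares called among all genes are those given above for each comparison. Genes of this list that changed by at least 1 on the log2 scale from day 0 to day 3 or in a KO follow, by role.

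Among ligands and receptors, *Osm*, the ligand oncostatin M, stood at 6.55, 6.29 and 5.17 TPM at day 0 and had no counts in any of the 3 day 3 libraries, which makes it at least 24.8-fold lower there (against a floor of 3 counts a library). *Il6ra*, the receptor of IL-6, fell by 3.13 on the log2 scale (SE 0.34, edgeR adjusted p = 1.04e-07). Its day 3 level rested on 6 to 11 estimated counts a library. *Cntfr*, the receptor of ciliary neurotrophic factor, rose by 2.21 (SE 0.14, edgeR adjusted p = 4.17e-10). *Clcf1*, a ligand of that receptor, rose by 1.93 (SE 0.30, edgeR adjusted p = 1.23e-05), from 7 to 19 estimated counts a library at day 0. Of the 6 ligands of this list tested, 1 rose and 1 fell from day 0 to day 3. Of the 3 receptors tested, 1 rose and 1 fell. Over all genes 70.9% were called there, 35% higher and 35.9% lower.

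Of the other Jak kinases, *Jak3* went from 38.1, 44.0 and 44.5 TPM at day 0 to 4.49, 4.81 and 5.40 TPM on day 1 and 3.23, 3.41 and 4.06 TPM on day 3, a fall of 3.68 on the log2 scale (SE 0.10, edgeR adjusted p = 3.16e-16). *Tyk2* fell by 1.11 (SE 0.08, edgeR adjusted p = 7.42e-10). Of the genes related to *Stat3*, *Stat4* fell by 1.11 and *Stat5a* by 1.01 from day 0 to day 3. Among adaptors and inhibitors, *Gab1*, a docking protein, fell by 1.41, *Pias2*, a SUMO ligase, by 1.57 and *Ptpn6*, which encodes the phosphatase Shp1, by 1.01 from day 0 to day 3.

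**Figure D5:**
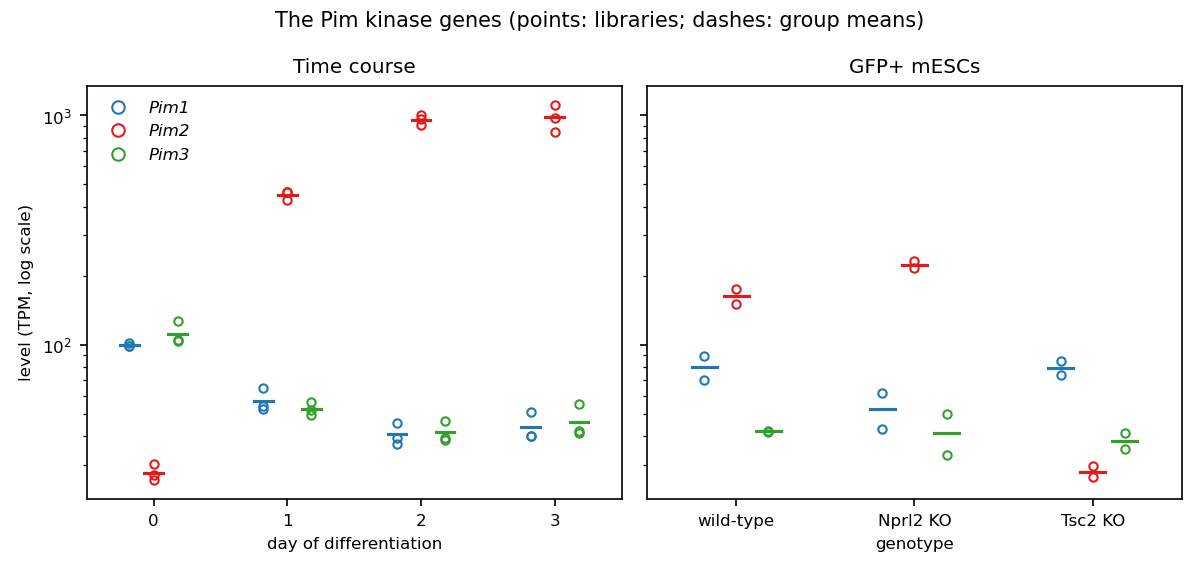
Level in TPM (log scale) of *Pim1*, *Pim2* and *Pim3* by day and by genotype, with a point for each library and a dash at the mean. *Pim2* goes from the lowest of the 3 genes at day 0 to by far the highest on days 1 to 3, and is lowest again in *Tsc2* KO cells.

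*Pim2*, the X-linked kinase gene of the same family as *Pim1* and *Pim3*, ran against them. It stood at 27.0, 30.1 and 25.6 TPM at day 0, at 464, 463 and 429 TPM on day 1, and at 848, 980 and 1114 TPM on day 3, when *Pim1* and *Pim3* were at 54.9 TPM or less. It was 33.4-fold higher at day 3 than at day 0 by fitted counts (log2 fold change 5.06, SE 0.10, edgeR adjusted p = 7.40e-18). In GFP+ cells *Pim2* stood at 174 and 150 TPM in wild-type, 215 and 232 TPM in *Nprl2* KO and 29.4 and 26.4 TPM in *Tsc2* KO, with no overlap between genotypes. It rose by 0.49 in *Nprl2* KO (SE 0.08, edgeR adjusted p = 0.00494) a call lost without *Nprl2* KO library 2 (adjusted p = 0.0537), and fell by 2.58 in *Tsc2* KO (SE 0.09, edgeR adjusted p = 1.43e-08), where neither *Pim1* (−0.05, SE 0.18, edgeR adjusted p = 0.869) nor *Pim3* (−0.18, SE 0.19, edgeR adjusted p = 0.534) was called.

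Of the other Stat3 targets, the naive-state factor *Klf4* fell by 6.25 on the log2 scale from day 0 to day 3, *Klf5* by 4.07 and *Tfcp2l1* by 6.66. *Bcl6*, a transcriptional repressor, fell by 3.16, to 1 to 15 estimated counts a library at day 3. *Icam1*, an adhesion receptor, fell by 2.95. *Cebpd* rose by 3.03 and *Cebpb* by 1.18, both of the C/EBP family of transcription factors. At day 0 *Cebpd* had 9 to 23 estimated counts a library. In *Nprl2* KO *Klf4* fell by 1.09 (SE 0.12, edgeR adjusted p = 0.000350) and *Tfcp2l1* by 1.27 (SE 0.18, edgeR adjusted p = 0.0211). In *Tsc2* KO *Klf4* rose by 1.15 (SE 0.11, edgeR adjusted p = 1.82e-05), *Tfcp2l1* by 2.09 (SE 0.18, edgeR adjusted p = 0.000803) and *Bcl6* by 1.28 (SE 0.31, edgeR adjusted p = 0.00816), while *Cebpd* fell by 1.22 (SE 0.26, edgeR adjusted p = 0.00414). The call of *Tfcp2l1* in *Nprl2* KO was lost without either *Nprl2* KO library (adjusted p = 0.138 and 0.155), and that of *Bcl6* in *Tsc2* KO without *Tsc2* KO library 2 (adjusted p = 0.0507) or wild-type library 2 (adjusted p = 0.0562) and in DESeq2 (adjusted p = 0.0786). *Socs3*, *Pim1*, *Pim3* and *Bcl3* were called in neither KO. *Tfcp2l1* is on chromosome 1. In *Tsc2* KO the genes of that chromosome were shifted as a whole, by a median of 0.37 on the log2 scale against 0.00 for all genes, and none of the 9 genes is on it.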

How the data were processed

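The authors quantified reads per RefSeq transcript with kallisto (0.42.1 in the submitters' processing notes, which also name mm10) and deposited, for each of 18 libraries, estimated counts and TPM, neither normalized between libraries. They also deposited a TPM table per gene, and DESeq2 comparisons (fold changes and p-values), which were not used. The GFP+ libraries were made with a strand-specific mRNA kit, and how those of the time course were made is not given in the sources used here. Of 34079 transcripts, 33713 were assigned to genes by the RefSeq table of GRCm38.p6 and 192 by GENCODE M21. The 174 others (1.65% to 3.57% of counts) were left out of gene counts and tests. Over gene symbols found in both, between 99.78% and 99.81% of a library's values in the TPM table were within 0.1% of the transcript sums.

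Estimated counts were summed per gene, rounded and fitted by edgeR 4.0.16 (R 4.3.3; quasi-likelihood test, TMM, filterByExpr, Benjamini-Hochberg over all genes tested), with the time course and the GFP+ libraries in separate fits. Replicate numbers were not used as pairs. Alternatives were DESeq2 1.42.0, upper-quartile normalization, no filter, limma 3.58.1 on log2(TPM + 1), the replicate number as a block, and leaving out each library. The fits were tested on simulated counts. Replicate libraries of each group differed by more than sampling noise. The 9 genes and the lists were chosen with earlier results of these data known. Every library is given for the 9 genes. Other pathway genes are named where called with a log2 fold change of at least 1 in size at day 3 against day 0 or in a KO. The result of 1 gene is not reported here. *Pim2*, *Pim1* and *Pim3* were set side by side, and *Kit* and *Mybl2* described, after their values were seen. No counting interval is given for TPM, since estimated counts carry kallisto's assignment error.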

Additional observations from a re-analysis of the deposited data

How the results depend on the processing

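With 2 libraries a genotype, the counts of calls in the KO lines moved with the analysis. Of the 9 genes, 1 was called in *Nprl2* KO, against 2 in DESeq2, 2 with no filter on low counts and 0 in limma on log2(TPM + 1). In *Tsc2* KO 4 were called, against 2 in DESeq2 and 2 in limma. Over all genes, 883 were called in *Nprl2* KO, against 1667 with no filter. In DESeq2 and in limma fewer of all genes were called in both KO lines. For *Nprl2* KO lower calls were 434 in DESeq2 and 384 in limma, against 502, and higher calls were fewer too. For *Tsc2* KO DESeq2 gave 1346 higher and 1400 lower calls and limma 2092 and 1431, against 2050 and 1946. Leaving out a library gave 0 to 2 of the 9 in *Nprl2* KO, 2 to 4 in *Tsc2* KO, 2 to 4 between the KO lines and 3 to 6 from day 2 to day 3, and over all genes 339 to 783, 2225 to 3974, 2974 to 4791 and 2969 to 5055. A genotype left with 1 library was assumed to vary like the others. Where samples shared a number, their deviations correlated between −0.11 and 0.13 in the time course, against −0.20 to 0.22 where they did not. Among the GFP+ libraries the values for a shared number were between 0.08 and 0.16. With 2 libraries a genotype, those for unlike numbers have the same size and the opposite sign by construction. The GFP+ values therefore cannot decide whether numbers mark pairs. Numbers were not read as pairs in either set. With the replicate block the fit called 2 of the 9 (*Lifr* and *Pim1*) and 2072 genes in *Nprl2* KO. It added *Lifr* and *Bcl3* in *Tsc2* KO and *Pim1* between the KO lines, and gave −0.000872 for *Pim3* in *Nprl2* KO. Over all genes in *Tsc2* KO the block gave 2669 higher and 2586 lower calls, against 2050 and 1946 without it. Between the KO lines it gave 2991 higher and 2855 lower calls, against 2408 and 2284.

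Of the fold changes of the named genes, counted once for each other setting, 1551 kept their direction and side of the threshold, 48 lost a call, 22 gained one and 22 changed sign. The sign changed only for values of the 9 genes that were not called. In limma these were *Jak1* at day 3 against day 0 (0.0214) and day 2 against day 1 (0.0069), *Il6st* at day 3 against day 1 (0.0800, and 0.000745 with upper-quartile normalization), *Stat3* at day 3 against day 2 (0.00361), *Jak1* (−0.00373) and *Pim3* (−0.0469) in *Nprl2* KO and *Il6st* between the KO lines (0.0302). Without a library, the lowest and highest values were −0.0855 and 0.0392 for *Stat3*, −0.0620 and 0.153 for *Pim1* and −0.0344 and 0.202 for *Pim3* at day 3 against day 2, −0.38 and 0.46 for *Bcl3* at day 2 against day 1, −0.32 and 0.28 for *Pim3* and −0.12 and 0.19 for *Jak1* in *Nprl2* KO, −0.19 and 0.12 for *Socs3* and −0.20 and 0.12 for *Pim1* in *Tsc2* KO, and −0.46 and 0.13 for *Pim3* between the KO lines. In limma the share of higher calls rose from 52.4% to 63.8% at day 2 against day 1, from 50.9% to 62.8% at day 3 against day 1, from 51.3% to 61.6% between the KO lines, from 50.4% to 60.3% at day 3 against day 2 and from 51.3% to 59.4% in *Tsc2* KO, and went from 49.5% to 42.4% at day 1 against day 0. The median of all genes moved to 0.11, 0.14 and 0.05 in the first 3 of these. The cause was not tested.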
